A study of Rattus norvegicus with 2 samples.

Results

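Chemokines are small secreted or membrane-anchored proteins that draw leukocytes along a gradient by binding receptors coupled to G proteins on the leukocyte surface. In the liver, hepatocytes and the other resident cells can make them when inflammatory cytokines activate NF-kappaB, and interferons add a second group of chemokines through IRF transcription factors. The 9 chemokine genes described here were Cxcl1, Cxcl2, Ccl2, Ccl20, Cxcl9, Cxcl10, Cxcl12, Cxcl16 and Cx3cl1. They were chosen by gene symbol from 13512 named genes, and 12 of the 31038 analysed probe sets carried 1 of these symbols and no other.

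RNA came from primary hepatocytes of the liver of male SD rats, cultured on collagen-coated plates in a basal hepatocyte medium with growth factors. The study compared untreated cells, called control, with cells kept for 24 h in 1 nM triiodothyronine (T3), the most active form of thyroid hormone, to find genes that respond to it. The groups rest on the sample titles and source names, since both samples carry the same treatment text. Each group was measured on 1 Affymetrix Rat Genome array, so the differences have no replicate check, no test was possible and no error can be given. The number of arrays limits the precision, and the labels do not say how many animals each RNA came from. Of the 12 marker genes of hepatocytes, 11 had a probe set and all 11 were present on both arrays. Their log2 ratios were above 0 in 7 and below 0 in 4, with a median of 0.03. The brightest was Alb (albumin) with signals of 3972 in control and 3449 with T3. Next were Ahsg (fetuin-A) with 3157 and 3424 and Apoa1 (apolipoprotein A-I) with 3040 and 2925. By the threshold defined below, 1 marker was past 1.5-fold and higher and 0 lower, beside 2.81% and 1.68% of all detected genes. The higher was the cytochrome P450 gene Cyp2e1 with 13.7 and 20.8. Its ratio of 1.52 lay inside the central range of ratios for its signal, 0.670 to 1.59, also described below. A bulk sample cannot tell fewer cells of a type from less RNA per cell.

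The unit throughout is the MAS5 signal, a scaled probe set intensity, together with the MAS5 detection call of present, marginal or absent. The signals of different probe sets depend on their probes, so they are not set against each other as transcript levels. A gene was counted as past the threshold when its ratio of T3 to control signal was at least 1.5 in either direction and its probe set was called present on the brighter array. Over all 9671 detected genes 2.81% were past it and higher with T3, and 1.68% were past it and lower. The spread of ratios depended on the signal. Among probe sets present on both arrays the central 95% of ratios ran from 0.849 to 1.20 at geometric mean signals from 256, from 0.767 to 1.33 between 64 and 256, from 0.670 to 1.59 between 16 and 64, and from 0.544 to 2.13 below 16.

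Of the 12 chemokine probe sets 9 were present on both arrays, 2 were present with T3 only and 1 was absent on both. Those present with T3 only and the 1 absent on both all belonged to Cxcl12, so 8 of the 9 genes were detected in control cells as well as in T3-treated cells. Each gene was represented by its probe set with the highest mean signal. On this basis 2 of the 9 genes, Cxcl10 and Cxcl12, were past 1.5-fold and higher with T3, beside the 2.81% of all detected genes. None was past it and lower (0 of 9), beside 1.68%. The members were chosen with earlier results of these data known, so no conclusion is drawn from setting these counts beside the shares. Cxcl12 was counted through a present call on the T3 array alone. Where both arrays had to call a probe set present, 1 of 8 genes passed, Cxcl10. Log2 ratios were above 0 in 6 genes and below 0 in 3, with a median of 0.15 over the 9 genes and 0.00 over all detected genes. The other 7 genes, all present on both arrays, had ratios between 0.845 and 1.37. Among the 9 chemokine probe sets that both arrays called present, 7 lay inside the central 95% for their signal, and those of Cxcl10 and Cxcl2 lay outside it, in opposite directions.

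**Figure D1:**
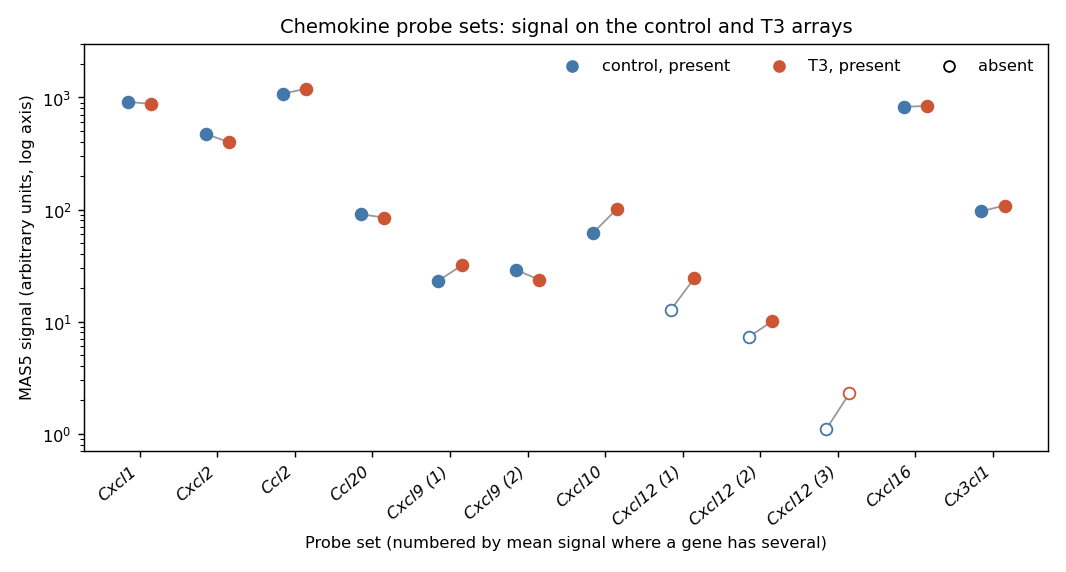
MAS5 signal on a log axis for each of the 12 chemokine probe sets on the control array (blue) and the T3 array (red), 1 array each. Filled points were called present and open points absent. The lines of Cxcl10 (62.4 to 101) and of the first Cxcl12 probe set (12.8 to 24.4) climb from control to T3, and those of Cxcl1, Ccl2 and Cxcl16 are nearly level.

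Promoters of 4 members are shown, because the results turn on Cxcl10, which passed 1.5-fold, beside its neighbour Cxcl9 and the neutrophil attractants Cxcl1 and Cxcl2, which did not. The sequences are from RefSeq on rat assembly GRCr8, 250 bases before to 50 after the annotated start, on the strand of the gene. Capitals mark matches on either strand to the consensus of NF-kappaB or to the core of the interferon-stimulated response element (ISRE), searched as a pair of GAAA with 2 bases of any kind between them. The windows are chr14:15988816-15989115 on the plus strand for Cxcl10, chr14:16006916-16007215 on the plus strand for Cxcl9, chr14:17467206-17467505 on the minus strand for Cxcl2 and chr14:17479272-17479571 on the minus strand for Cxcl1.
Cxcl10: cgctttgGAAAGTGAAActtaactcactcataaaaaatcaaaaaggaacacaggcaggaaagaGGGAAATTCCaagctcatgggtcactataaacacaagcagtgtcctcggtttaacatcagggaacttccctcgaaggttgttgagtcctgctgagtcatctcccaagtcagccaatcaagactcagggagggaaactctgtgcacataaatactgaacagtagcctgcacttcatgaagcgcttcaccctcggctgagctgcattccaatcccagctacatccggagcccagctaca
Cxcl9: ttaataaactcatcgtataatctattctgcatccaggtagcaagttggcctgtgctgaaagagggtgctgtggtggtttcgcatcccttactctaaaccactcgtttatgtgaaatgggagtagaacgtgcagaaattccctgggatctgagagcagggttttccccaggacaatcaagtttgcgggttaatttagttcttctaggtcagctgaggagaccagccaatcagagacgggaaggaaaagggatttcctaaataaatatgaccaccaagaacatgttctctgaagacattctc
Cxcl2: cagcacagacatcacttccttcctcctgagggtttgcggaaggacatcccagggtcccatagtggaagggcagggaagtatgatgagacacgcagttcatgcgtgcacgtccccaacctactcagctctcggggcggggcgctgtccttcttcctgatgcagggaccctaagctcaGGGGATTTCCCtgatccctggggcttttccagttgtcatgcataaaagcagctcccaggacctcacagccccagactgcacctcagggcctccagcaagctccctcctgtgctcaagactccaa
Cxcl1: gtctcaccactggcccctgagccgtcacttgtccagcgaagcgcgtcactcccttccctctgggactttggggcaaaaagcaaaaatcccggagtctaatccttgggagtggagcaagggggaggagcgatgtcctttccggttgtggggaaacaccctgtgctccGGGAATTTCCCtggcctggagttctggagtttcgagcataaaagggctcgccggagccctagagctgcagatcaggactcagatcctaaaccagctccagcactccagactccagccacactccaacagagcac

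Promoter windows were given for 8 of the 9 genes, all except Ccl2. The ISRE core occurred in the Cxcl10 window alone among these 8, from 243 to 234 bases before the start, and 3.77% of 27457 rat promoter windows held it. The NF-kappaB consensus occurred in 4 of the 8, those of Cxcl1, Cxcl2, Cxcl10 and Ccl20, and in 4.16% of all windows. In Cxcl10 it lay from 187 to 178 bases before the start and did not overlap the ISRE core. In Cxcl2 and Cxcl1 overlapping matches on both strands made up a single capitalised run. The direct repeat bound by thyroid hormone receptors, AGGTCA repeated after 4 bases of any kind, on either strand, was in 0 of the 8 windows and in 1 of the 27457. With the exact repeat in 1 of 27457 windows, 0 of 8 would be found for nearly any 8 genes, so no conclusion is drawn from it. A match is a match of letters. Its absence says nothing about sites elsewhere, or about sites with other letters inside these windows.

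Among the interferon-induced chemokines, Cxcl10 had a signal more than 1.5-fold higher with T3, and Cxcl9 and Cxcl11 did not pass that threshold. Cxcl9, Cxcl10 and Cxcl11 attract activated T cells and natural killer cells through the receptor Cxcr3, and their genes lie next to each other on chromosome 14, with no other protein-coding gene between them. Cxcl10 had a signal of 62.4 on the control array and 101 on the T3 array, which gave a ratio of 1.62 and a log2 ratio of 0.70. Both calls were present with a detection p-value of 0.000244. This ratio lay outside the central 95% of probe sets of similar signal, 0.767 to 1.33, and 0.773% of the detected probe sets with geometric mean signals between 64 and 256 were past 1.5-fold and higher. The gene has 1 probe set, so no second measurement was available on the same arrays. Cxcl10 also stood in the authors' deposited table of probe sets at least 1.5-fold higher, with the same ratio.

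Cxcl9 gave opposite answers from its probe sets. The probe set with the higher mean signal had 23.2 in control and 31.7 under T3, 1.37 times control. The other had 28.9 and 23.7, or 0.818 times control. All 4 calls were present, and both ratios lay inside the central 95% for their signal, so no direction can be given for Cxcl9. Cxcl11, which is not among the 9 genes, was present on both arrays with signals of 171 and 184, a ratio of 1.08. The gene of their shared receptor, Cxcr3, was barely detected, with 4.59 and a present call in control and 7.21 and a marginal call with T3.

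**Figure D2:**
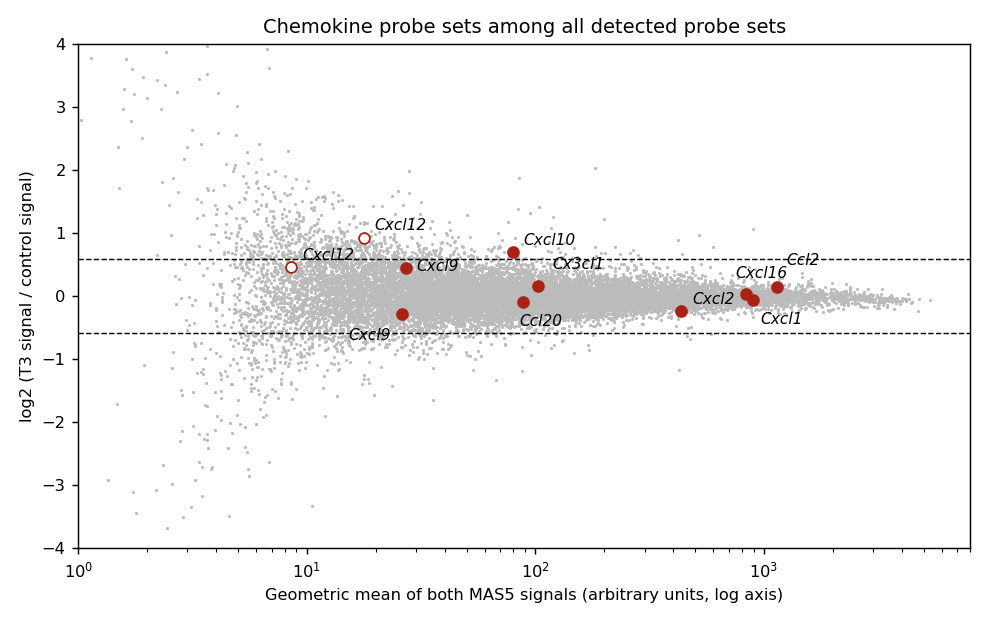
Log2 ratio of T3 to control signal against the geometric mean of both signals (log axis) for the probe sets present on at least 1 array, 18318 of them within the axes and 14 outside. Red points are chemokine probe sets, filled where present on both arrays and open where present with T3 only, and dashed lines mark 1.5-fold. Cxcl10 at 0.70 and the first Cxcl12 probe set at 0.93 lie above the bulk of probe sets of their signal. Both Cxcl12 points lie where the grey points spread more widely than at the signal of Cxcl10.

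Cxcl12, which retains and guides cells that carry the receptor Cxcr4, was at the edge of detection. Its first probe set had a signal of 12.8 and an absent call in control and 24.4 and a present call with T3, with detection p-values of 0.0676 and 0.0303. The second had 7.29, absent, and 10.0, present, and the third had 1.09 and 2.29, both absent. Both detected probe sets counted as detected through the T3 array alone, so the direction they share is no support for a difference. For a gene absent in control the ratio is a bound, at least 1.90-fold higher for the first probe set and at least 1.38-fold for the second. The divisor was the absent signal itself, which is no detection limit, so neither bound is firm. Of the detected probe sets with geometric mean signals between 16 and 64, 4.52% were past 1.5-fold and higher, and of those below 16, 19.7%. The ratio of the first probe set lay above the central range of 0.670 to 1.59 for its signal. That of the second lay inside its range of 0.544 to 2.13. These ranges come from probe sets present on both arrays, which those of Cxcl12 were not. The authors' deposited table of probe sets at least 1.5-fold higher also held the first probe set. Cxcr4 had 3 probe sets, all absent on both arrays.

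The neutrophil attractants Cxcl1 and Cxcl2 were present on both arrays and did not pass 1.5-fold. Both bind the receptor Cxcr2 and are known as early NF-kappaB targets. Cxcl1 had signals of 914 (control) and 874 (T3), or 0.957 times control. Cxcl2 had 473 and 400, or 0.845 times control, just below the central 95% of 0.849 to 1.20 for its signal. Their relatives of the same gene cluster gave values on the same side, with Cxcl3 at 1244 and 1140 (0.917 times control) and Cxcl6 at 555 and 480 (0.864 times control). The other detected Cxcl3 probe sets were at 0.971 and 0.946 times control. Coding sequences of Cxcl1, Cxcl2 and Cxcl3 are closely related, and whether their probe sets also bound each other's transcripts was not tested.

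The CC chemokines Ccl2 and Ccl20 also stayed within 1.5-fold. Ccl2 attracts monocytes through Ccr2, and its signals of 1081 (control) and 1199 (T3) gave a ratio of 1.11. Ccl20 attracts Ccr6-bearing lymphocytes and dendritic cells, and its signals of 90.8 and 84.8 gave a ratio of 0.934. Both were present on both arrays, with Ccl20 at detection p-values of 0.00293 and 0.0142. Ccl7, the gene next to Ccl2 on chromosome 10 and another monocyte attractant, had signals of 27.7 and 30.1, a ratio of 1.08.

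The membrane-anchored chemokines had ratios near 1 too. Cxcl16 binds Cxcr6 and also acts as a scavenger receptor for lipids, and its signals of 824 (control) and 841 (T3) gave a ratio of 1.02. Cx3cl1 (fractalkine), the adhesive ligand of Cx3cr1, had signals of 96.7 and 109, a ratio of 1.12. Cx3cl1 was present with detection p-values of 0.00806 and 0.0107. Both proteins are released by the proteases Adam10 and Adam17. Adam10 had a signal of 202 in control and 163 with T3 (0.808 times control), and Adam17 had 128 and 129 (1.01 times control). These proteases belong to a list of 12 genes for shedding, cleavage and surface retention, of which 11 were detected. In this list 0 were past 1.5-fold, higher or lower, beside 2.81% and 1.68% of all detected genes, and the median log2 ratio was -0.02. Its brightest members were the heparan sulfate proteoglycans Sdc4 (1708 and 1698) and Sdc1 (1745 and 1546), which hold chemokines at the cell surface, and the protease inhibitor Timp1 (906 and 912).

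Most other chemokine ligands and most receptors were not detected. Of 26 further ligand genes 22 had a named probe set and 6 were detected, all 6 on both arrays. None of these 6 was past 1.5-fold in either direction (0 higher and 0 lower, beside 2.81% and 1.68% of all detected genes). Their ratios ran from 0.864 to 1.11, and their median log2 ratio was 0.04. Ccl9 had 2558 and 2514, a ratio of 0.983. Ccl3, Ccl4 and Ccl5, which macrophages and lymphocytes make in quantity, were absent on both arrays. Of 23 receptor genes 17 had a named probe set and 2 were called present on an array, Cxcr3 and Ccrl2, and only in control. Ccrl2 had 10.2, present, and 15.4, absent. The signals of both genes were higher with T3 where the call was not present, so neither counted as past the threshold.

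**Figure D3:**
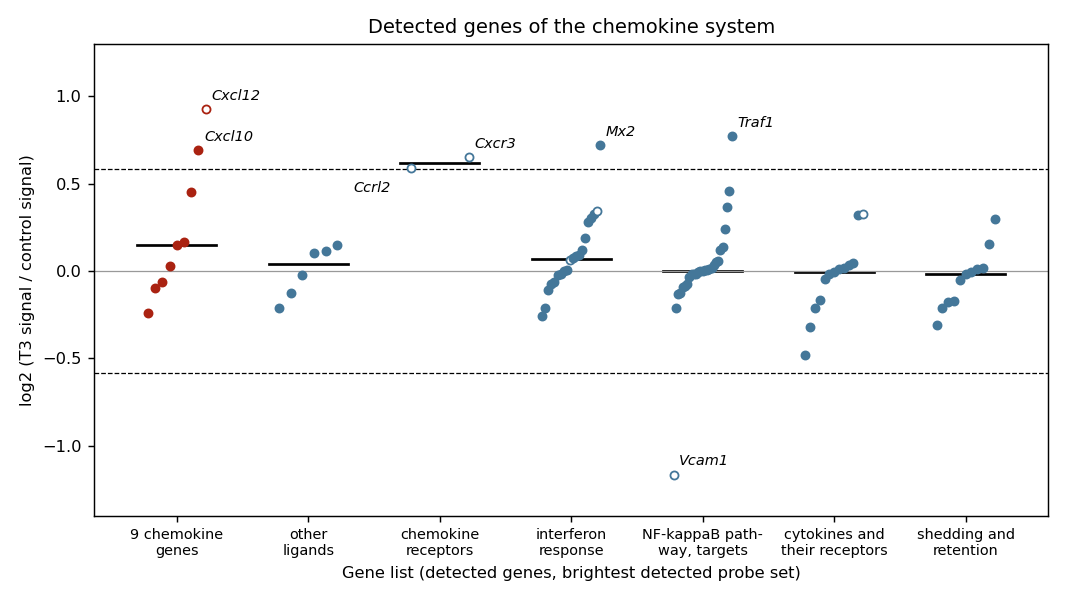
Log2 ratio of T3 to control signal for the detected genes of each list, each by its probe set with the highest mean signal, in order of ratio within a list. Filled points were present on both arrays and open points were not, black bars are list medians, dashed lines mark 1.5-fold, and the names are those of genes beyond the dashed lines. Most genes of the interferon, NF-kappaB and cytokine lists lie between the lines, with medians of 0.07, 0.00 and 0.00.

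Genes that respond to interferon, as Cxcl10 does, showed 1 of 20 detected members past 1.5-fold and higher and 0 lower, beside 2.81% and 1.68% of all detected genes. The list held 31 genes, of which 26 had a named probe set and 18 were present on both arrays. Its median log2 ratio was 0.07, with 12 members above 0 and 8 below. The 1 member past the threshold was the antiviral GTPase gene Mx2, at 16.2 and 26.7, a ratio of 1.65. A second Mx2 probe set pointed the other way, from 5.23 and present in control to 2.27 and absent with T3. The brightest members were near equal, with the interferon-inducible Ifi27 at 2359 and 2261, the immunoproteasome subunit gene Psmb8 at 444 and 412 and the tetherin gene Bst2 at 313 and 315. Irf1, a transcription factor known to act on the Cxcl10 promoter and picked out after its values were seen, had 301 and 298. Isg15, Ifit1 and Oas1a were absent on both arrays.

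**Figure D4:**
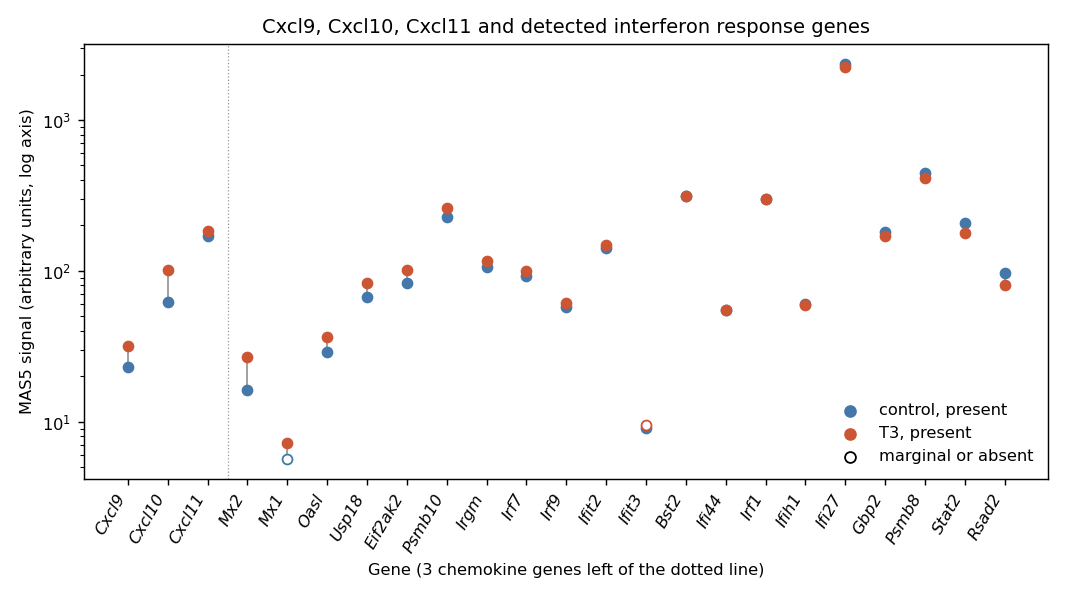
MAS5 signal on a log axis on the control (blue) and T3 (red) arrays for Cxcl9, Cxcl10 and Cxcl11 and, right of the dotted line, the 20 detected interferon response genes in falling order of ratio. Cxcl9 is drawn by its probe set with the higher mean signal. The gap between the points of Cxcl10 (62.4 and 101) contrasts with the overlapping points of Irf1 and Bst2.

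Of 32 genes of the NF-kappaB pathway and its targets 28 had a named probe set and 27 were detected. Past 1.5-fold were 1 higher member and 1 lower, beside 2.81% and 1.68% of all detected genes. The higher was the signalling adaptor gene Traf1 (15.4 and 26.3, a ratio of 1.71). The lower was the adhesion molecule gene Vcam1 (5.25, present, and 2.34, absent, 0.446 times control). Its T3 signal was absent and is no detection limit, so this ratio is no firm bound. Both probe sets had low signals, where ratios spread widely. The median log2 ratio of the list was 0.00. The antibacterial siderophore-binding protein gene Lcn2 had 1286 and 1657, a ratio of 1.29. This ratio lay above the central range of ratios for its signal, 0.849 to 1.20. The adhesion molecule gene Icam1 had 690 and 682, and the kinase gene Irak1 had 651 and 635. Bcl3, picked out after its values were seen, had 127 and 174. Its ratio of 1.37 lay above the central range of 0.767 to 1.33 for its signal, and Traf1 lay above its range of 0.670 to 1.59. No member of this list present on both arrays lay below the central range for its signal. Of 23 cytokines and receptors that induce chemokines 21 had a named probe set and 13 were detected. Past 1.5-fold were 0 higher and 0 lower, beside 2.81% and 1.68% of all detected genes, with a median of 0.00. The 13 included the tumour necrosis factor receptor gene Tnfrsf1a (429 and 417) and the interferon gamma receptor gene Ifngr1 (394 and 398). The shared interleukin-6 receptor subunit gene Il6st (264 and 329) had a ratio of 1.25, above the central range of 0.849 to 1.20 for its signal. No cytokine or receptor present on both arrays lay below the central range for its signal. The interferon genes Ifng and Ifnb1 and the interleukin-1 genes Il1a and Il1b were absent on both arrays. Tnf counted as detected through the T3 array alone, with 6.43, absent, in control and 8.05, present, with T3. Il6 had 3.37, absent, and 5.63, marginal.

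Markers of cells other than hepatocytes, which also make chemokines, were measured beside these results. Of 18 leukocyte and Kupffer cell markers 15 had a named probe set and 3 were detected, Cd14 (294 and 296), Lyz2 (40.4 and 41.2) and Cd163 (4.79 and 7.64, a ratio of 1.60). Their summed signal, most of it from Cd14, was 339 in control and 345 with T3. The defining markers Ptprc, Cd68, Adgre1 and Clec4f were absent on both arrays. Of 13 endothelial markers 10 had a named probe set and 3 were detected, Egfl7 (31.0 and 47.8, a ratio of 1.54), Ramp2 (13.9 and 8.05, a ratio of 0.581) and Tek (6.79 and 5.94). Their summed signal was 51.6 and 61.8, higher with T3 through Egfl7 alone, since Ramp2 and Tek were lower. A second Egfl7 probe set, absent on both arrays, had 56.5 and 56.4. Pecam1 and Cdh5 were absent. Stellate cell and fibroblast markers were detected for 9 of 15, with a summed signal of 3326 and 3002. Vim (1621 and 1418), Tagln (1096 and 986) and Reln (417 and 389) were the brightest. Lrat (13.8 and 7.32) and Col6a3 (11.6, present, and 3.63, absent) were past 1.5-fold and lower, and 0 were higher. The shares over all detected genes were 1.68% lower and 2.81% higher. A second Col6a3 probe set, absent on both arrays, had 1.52 and 12.1. Of the 9 detected markers 6 had log2 ratios below 0 and 3 above, Acta2 (102 and 124), Des (46.4 and 56.6) and Col3a1 (8.11 and 9.93), and Dcn, Lum and Pdgfrb were absent. Bile duct markers were detected for 6 of 10, led by Krt19 (1240 and 1079), Epcam (1038 and 901) and Krt7 (527 and 478). Their summed signal was 3698 and 3356, and Sox9 and Spp1 were absent. Log2 ratios were below 0 in 5 and above 0 in 1, Onecut1 (228 and 295, a ratio of 1.29). Past 1.5-fold were 0 higher and 0 lower, beside 2.81% and 1.68% of all detected genes. The part of these cells in the chemokine signals was not tested.

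The annotation deposited with the probe sets grouped the members by function. All 9 carried the term chemokine activity, which 33 of 13512 named genes carried. Terms ending in immune response and in chemotaxis were each given to 8 of the 9, all except Cxcl16. Inflammatory response was given to 6, namely Cxcl1, Cxcl2, Cxcl10, Ccl2, Ccl20 and Cx3cl1. Of these 6 genes Cxcl10 alone, already counted above, was past 1.5-fold and higher, beside 2.81% of all detected genes. The others had ratios between 0.845 and 1.12.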

How the data were processed

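RNA from 1 control and 1 T3 culture was measured on Rat Genome 230 2.0 arrays. Per the file headers, the authors deposited MAS5 intensity values, detection p-values and calls. Affymetrix Expression Console is named, per the submitters' processing notes; its version is not given in the sources used. The deposited ratio is T3 over control intensity and equalled the quotient of the signals. On the control array 56.7% and on the T3 array 55.6% of probe sets were present; the highest detection p-value with a present call was 0.0461.

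The 57 array controls among 31095 probe sets were set aside. Of the remaining 31038, 18645 were named by gene number through the RefSeq table of GRCr8 and 524 by file symbol; 599 with several symbols and 11270 with none were not named. All 9 members kept the symbol of the file. Log2 ratios had no pseudocount. Python 3.11.15, pandas 2.3.3 and statsmodels 0.14.6 were used. On simulated arrays the median log2 ratio of probe sets raised by known folds was recovered, and none was called lower. The count of genes past 1.5-fold and higher was not checked there. From related lists the 3 brightest detected genes and those past 1.5-fold are named, others after their values were seen. In the interferon list 1 gene is not reported here. Members and lists were chosen with earlier results of these data known. With 1 array per group no test was made.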

Additional observations from a re-analysis of the deposited data

How the results depend on the processing

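No paired analysis was possible because each group has 1 array, and no replicate could be left out. The count of 2 chemokine genes past 1.5-fold and higher became 0 with a pseudocount of 16 or 64, 1 (Cxcl10) where both arrays had to call a probe set present, 0 where the geometric mean had to reach the median of 104, and 0 at a ratio of at least 2. It was 2 under the other alternatives: no detection filter, median centring, quantile normalization, loess, the series value table and both other ways to choose a probe set. The count of lower genes was 0 throughout. The median log2 ratio turned to -0.017 with the signal filter, which kept 4 of the 9 genes, and moved by no more than 0.1 otherwise. The log2 ratio of Cxcl10 ran from 0.38 with a pseudocount of 64 to 0.70 with loess. All 66 recomputed log2 ratios of detected member probe sets kept their sign, and 12 moved by more than 0.1, of which 10 with a pseudocount.

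With a pseudocount of 16 the interferon list had 0 higher genes in place of 1, and the NF-kappaB list 0 higher and 0 lower in place of 1 and 1. With presence required on both arrays the NF-kappaB list had 0 lower. With the median over probe sets the interferon list had 0 higher. Low signal over background limits Cxcl12, Cxcl9, Mx2, Traf1 and Vcam1.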
